A study of Rattus norvegicus with 36 samples.

Results

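Variation between arrays of the same dose was examined in all 36 arrays of a rat liver series, apart from the effect of dose. The series asked how liver transcripts respond to hexabromocyclododecane (HBCD), a brominated flame retardant. Male Harlan Sprague Dawley rats, 7 weeks old at the start and fed without restriction, were gavaged daily on 5 days in a row, in a volume of 5 ml/kg. The 6 groups of 6 arrays were corn oil vehicle and HBCD in corn oil, the lowest dose being 0.06 mg/kg and the others 0.641, 6.41, 64.1 and 641 mg/kg. Left liver lobe was taken 1 day after the last dose, and RNA was used where its integrity number was at least 7.0. Whether the 6 arrays of a group were 6 rats is not stated in the labels, and the p-values here describe only how these samples scatter, a scatter that may be technical. The hour of necropsy is not given in the sources used here.

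From each log2 level the mean of its dose group was subtracted, and the SD of these deviations over the 36 arrays, with 30 residual degrees of freedom, is called the within-group SD. Of 14217 genes with a probe set of a single symbol, 7419 had a mean level of at least 6 and were ranked by that SD. A member of a gene list is called measured where its mean level was at least 6. The tests used all 10882 of 31042 probe sets with a mean of at least 6, including probe sets with no single gene name and several probe sets of some genes. At the edge of the level threshold, Tigd2 (mean 6.0003) was inside with an SD of 0.144 and Gpsm1 (mean 5.9998) was outside with an SD of 0.114. Because the SD chose the genes, the SDs are given as a description, with no test.

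The liver is a tissue whose transcripts move within hours. Feeding and fasting switch lipid, sterol and amino acid genes, the circadian clock drives daily rhythms, and growth hormone, which male rats secrete in pulses, acts on hepatocytes through STAT5. Interferon-stimulated genes and MHC class II genes report on the immune state of the tissue and are strongly expressed in Kupffer cells, the resident macrophages. In a bulk sample, fewer cells of a type and less RNA per cell cannot be told apart.

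Most genes varied little between arrays of a dose. The median within-group SD was 0.113, the 95th percentile 0.272 and the 99th percentile 0.538, all on the log2 scale. Only 87 of 7419 genes (1.17%) had an SD of at least 0.5, and 9 had an SD of at least 1. The 18 spiked hybridisation control probe sets, which carry no liver RNA, had SDs of 0.035 to 0.151 with a median of 0.112. The 9 measured hepatocyte markers had a median SD of 0.032 and a highest SD of 0.101, at mean levels of 12.95 to 14.52, where the highest value of all arrays was 14.59. Over all genes the SD was lower at higher mean levels (rho = -0.395 across genes, which are not independent replicates), and whether these probe sets were near saturation was not tested. The median SD over probe sets was alike in the groups, from 0.1075 to 0.115.

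The within-group SD is also the error against which a dose effect is tested, so genes chosen for a high SD were less likely to pass that test, and the following values are a description only. None of the 25 genes with the highest SD passed the test for any difference between dose groups (limma's moderated F test, smallest adjusted p = 0.26, with 2 of 25 at an unadjusted p under 0.05). Of all 10882 probe sets, which were not chosen by SD, 361 passed (3.32%), and nothing is read from that difference. For the 25 genes, the share of variance that lay between groups ran from 2.4 to 30.4% with a median of 12.4%, where 14.3% arises if the group means are equal. Among the 150 genes with the highest SD, 5 passed: Scd, Nqo1, Sult2a6, Adgrg2 and Cyp3a9. Scd, which makes monounsaturated fatty acids, had 64.3% of its variance between groups (adjusted p = 1.84e-04). Scd at 641 mg/kg ran from 7.45 through a median of 8.08 to 8.41, and in vehicle from 8.19 through 10.13 to 11.12. The vehicle arrays thus spanned a wider range of Scd than the 641 mg/kg arrays, with 1 vehicle level inside the range at 641 mg/kg. A test of unequal spread between dose groups did not pass for Scd (limma on absolute deviations, adjusted p = 0.433).

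Several of the genes at the top of the ranking were split between arrays with no values between. Ugt2b, a UDP-glucuronosyltransferase that conjugates steroids and drugs, had the highest SD, 2.08. It lay between 12.5 and 13.08 on 33 arrays and at 6.77 or lower on 3. The low arrays were vehicle replicate 3 at 5.02, 0.641 mg/kg replicate 6 at 5.23 and 0.06 mg/kg replicate 4 at 6.77. The difference between the highest and the lowest array was 268-fold. A second Ugt2b probe set, with an SD of 2.079, followed the same arrays. All arrays at 6.41, 64.1 and 641 mg/kg were in the high set. Ugt2b passed neither the test between dose groups (limma F test, adjusted p = 0.861) nor that of spread (limma on absolute deviations, adjusted p = 0.356).

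Ephx2, soluble epoxide hydrolase, which opens fatty acid epoxides, showed the reverse split. It was at 6.74 or lower on 30 arrays and at 8.53 or higher on 6, the latter being 2 arrays each at 641 and 0.06 mg/kg and 1 each in vehicle and at 6.41 mg/kg. Clca2, a member of the calcium-activated chloride channel regulator family, was at 5.44 or lower on 5 arrays and at 7.22 or higher on 31. At 641 mg/kg its levels ran from 4.40 through a median of 6.60 to 8.13, with 3 arrays in the low set, and at 6.41 mg/kg from 7.27 through 7.46 to 7.59. Clca2 was 1 of 3 of the 10882 probe sets (0.0276%) whose spread differed between dose groups (limma on absolute deviations, adjusted p = 0.0197). The others were Cisd3, an iron-sulfur protein of mitochondria (adjusted p = 0.0197), and a probe set with no gene name here. With deviations from the group median the count was 0, leaving out 1 array gave 1 to 12 (12 without 641 mg/kg replicate 3), and 1194 probe sets had an unadjusted p under 0.05, against 544.1 for uniform p-values. The single probe sets of Ephx2 and Clca2 allow no second reading.

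Cdh17, liver-intestine cadherin, an adhesion protein, was at 6.39 or lower on 6 arrays and at 7.93 or higher on 30, and its SD was 1.44. Ubd (FAT10), a ubiquitin-like protein induced by interferon gamma, was at 5.45 or lower on 7 arrays and at 7.11 or higher on 29, with an SD of 1.37. RT1-Ba, an alpha chain of rat MHC class II, was at 4.24 in vehicle replicate 6 and at 4.62 in 64.1 mg/kg replicate 6, and at 8.04 or higher on the other arrays. Its 4 probe sets did not follow each other: another varied against it (SD 0.761, r = -0.722), and the remaining pair had SDs of 0.142 and 0.115. The SD of RT1-Ba therefore fell from 1.34 to 0.23 when its probe sets were averaged. Some arrays recurred among these splits. Vehicle replicate 3, low for Ugt2b, was also low for Ubd and high for Ephx2. Replicates 1 and 3 at 0.06 mg/kg were low for Cdh17 and high for Ephx2. Vehicle replicate 4 was low for Ubd and Clca2, and 641 mg/kg replicate 1 was low for Clca2 and high for Ephx2. The arrays low for RT1-Ba were not among those low for Ugt2b, Ubd, Cdh17 or Clca2.

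**Figure D1:**
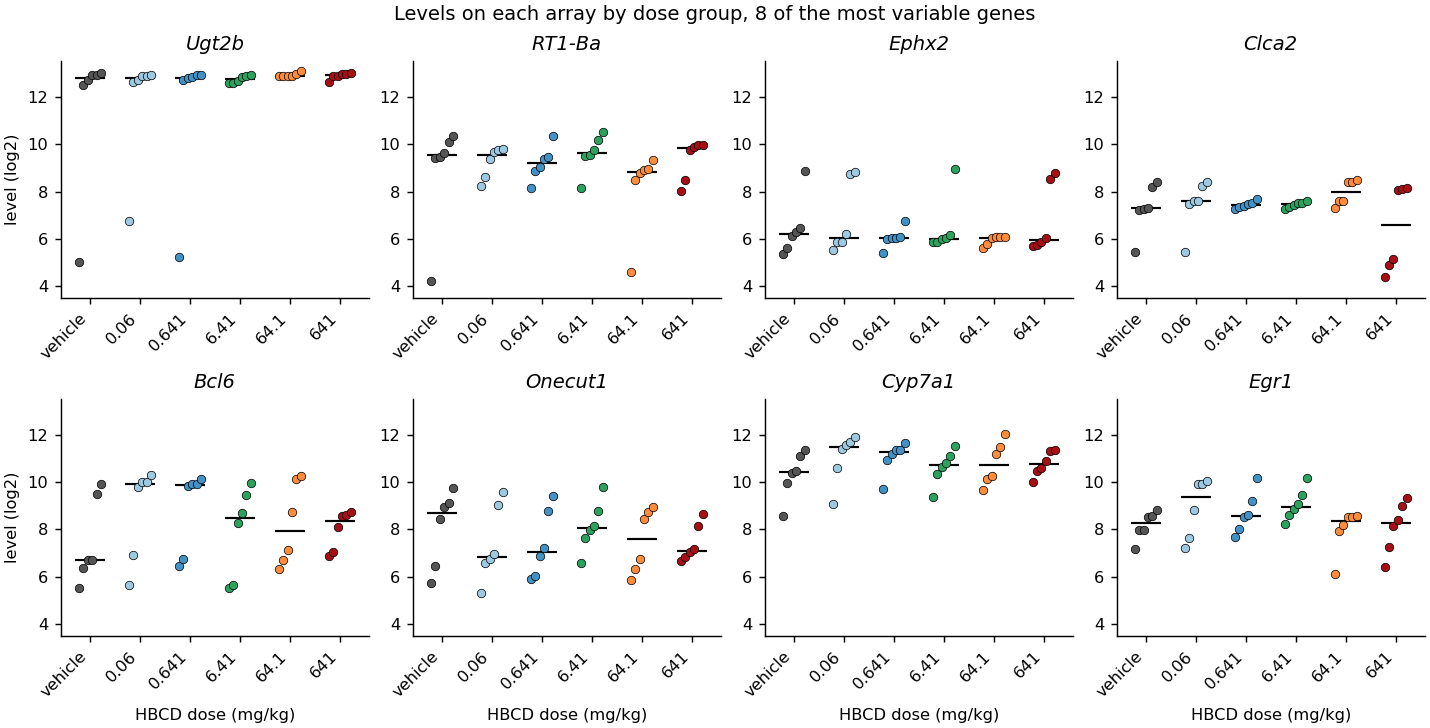
Levels (log2) of 8 of the most variable genes on each array, by HBCD dose group in mg/kg; points are arrays, 6 per group, and bars are group medians. Ugt2b is low on 3 arrays, RT1-Ba on 2 and Clca2 on 5, and Ephx2 is high on 6. Bcl6, Onecut1, Cyp7a1 and Egr1 span 3.47 to 4.75 log2 units over all arrays and less within single doses.

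A second kind of variable gene spread within every dose group. Bcl6, a transcriptional repressor that responds to growth hormone and fasting in liver, had an SD of 1.70. In vehicle it ran from 5.55 through a median of 6.73 to 9.90, at 0.06 mg/kg from 5.67 through 9.90 to 10.30, and at 641 mg/kg from 6.90 through 8.34 to 8.75. Its 36 levels left a gap between 7.13 and 8.12, with 15 arrays under it and 21 over it, and both sides held arrays of every dose group.

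Onecut1 (HNF6), a hepatocyte transcription factor that is growth hormone responsive, had an SD of 1.35. In vehicle it ran from 5.75 through 8.70 to 9.74, at 0.06 mg/kg from 5.34 through 6.86 to 9.59, and at 641 mg/kg from 6.69 through 7.10 to 8.65. The groups overlapped over most of their range. A second Onecut1 probe set had an SD of 1.123 and followed the first with r = 0.981. Socs2, a feedback inhibitor of growth hormone signalling and a STAT5 target, had an SD of 1.15 and ran from 4.83 to 8.83 over all arrays.

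Cyp7a1, which controls the rate at which cholesterol is turned into bile acids, had an SD of 0.836 and spanned 11.1-fold, from 8.55 in vehicle replicate 2 to 12.03 in 64.1 mg/kg replicate 4. Of the 14 measured genes of bile acid synthesis and transport, the other variable ones were Nr0b2 (SHP), a repressor of Cyp7a1 (SD 0.551), and Cyp8b1, which sets the cholic acid share (SD 0.256), and the list median was 0.119. Fgf21, a hormone released by the liver in fasting, had an SD of 0.845, and Mt2A, a metallothionein induced by metals and glucocorticoid, of 0.914. Mt2A was lowest in 0.06 mg/kg replicate 3 at 6.40 and highest in 641 mg/kg replicate 2 at 11.02.

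Immediate early, interferon and MHC genes had the highest median SDs of the 18 function lists. The SDs of the function lists cover only members with a mean of at least 6. These were 13 of 19 immediate early genes with a probe set, 11 of 21 interferon genes and 15 of 19 MHC genes. They were also 13 of 19 clock genes and 8 of 21 cell cycle genes. The 13 measured immediate early genes, which are induced within minutes of a stimulus, had a median SD of 0.36, and all 13 lay above 0.15, the upper quartile of all genes. Egr1 (0.936), Jun (0.668), Dusp1 (0.647), a phosphatase of MAP kinases, and Myc (0.573) led them. The 11 interferon response genes had a median of 0.353, led by Usp18 (0.761), which removes ISG15 from proteins, Irf7 (0.594), the master regulator of type I interferon genes, and Isg15 (0.547), with 10 of 11 above the upper quartile. The 15 genes of MHC and antigen presentation had a median of 0.294, led after RT1-Ba by Psmb8 (0.519), an immunoproteasome subunit, and RT1-S3 (0.47), with 11 of 15 above the upper quartile.

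The lists of metabolism and the clock followed. The 15 fasting and glucocorticoid genes had a median SD of 0.256, led by Bcl6, Mt2A and Sgk1 (0.784), a kinase induced by glucocorticoid. The 19 sterol synthesis genes had a median of 0.238, led by Insig1 (0.597), the protein that holds the sterol sensor in the endoplasmic reticulum, Acat2 (0.337) and Stard4 (0.334), with 16 of 19 above the upper quartile. The 13 clock genes had a median of 0.22, led by Bhlhe40 (0.65), Per2 (0.482) and Nr1d2 (0.267), and the 17 genes of fatty acid synthesis one of 0.201, led by Scd (0.641), Thrsp (0.389) and Elovl6 (0.348).

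The other lists lay closer to the median of all genes, 0.113. They were endoplasmic reticulum stress (23 genes, 0.196), led by Asns (0.724), PPARalpha targets (18 genes, 0.182), led by Fgf21, Angptl4 (0.501) and Pdk4 (0.416), and CAR and PXR targets (17 genes, 0.172), led by Sult2a6 (0.538) and Cyp3a9 (0.414). Cell cycle genes (8 genes, led by Cdk1 at 0.479) had a median of 0.159, genes of the pericentral zone (11 genes, led by Cyp7a1) one of 0.15, NRF2 targets (13 genes, led by Nqo1 at 0.629) one of 0.145, heat shock genes (16 genes, led by Hspb1 at 0.322) one of 0.144 and genes of the periportal zone (15 genes, led by Aldh1b1 at 0.372) one of 0.138. Growth hormone and male-pattern genes had a median of 0.102 over 14 genes. The most variable members were Socs2 (1.15), Cyp2c12 (0.473), a female-predominant cytochrome, and Obp3 (0.434). The Cyp2c12 probe set had a mean level of 11.1 in these male rats, and which transcripts it reads was not tested. Acute phase genes had the lowest median of the function lists, 0.078 over 19 genes, with Hamp (0.583), the iron hormone hepcidin, and A2m (0.576), a protease inhibitor, as the variable members. Its 9 members of lowest SD, among them Hp, Fgg and Fga, lay at mean levels of 12.98 to 13.82, and saturation was not tested for them either.

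**Figure D2:**
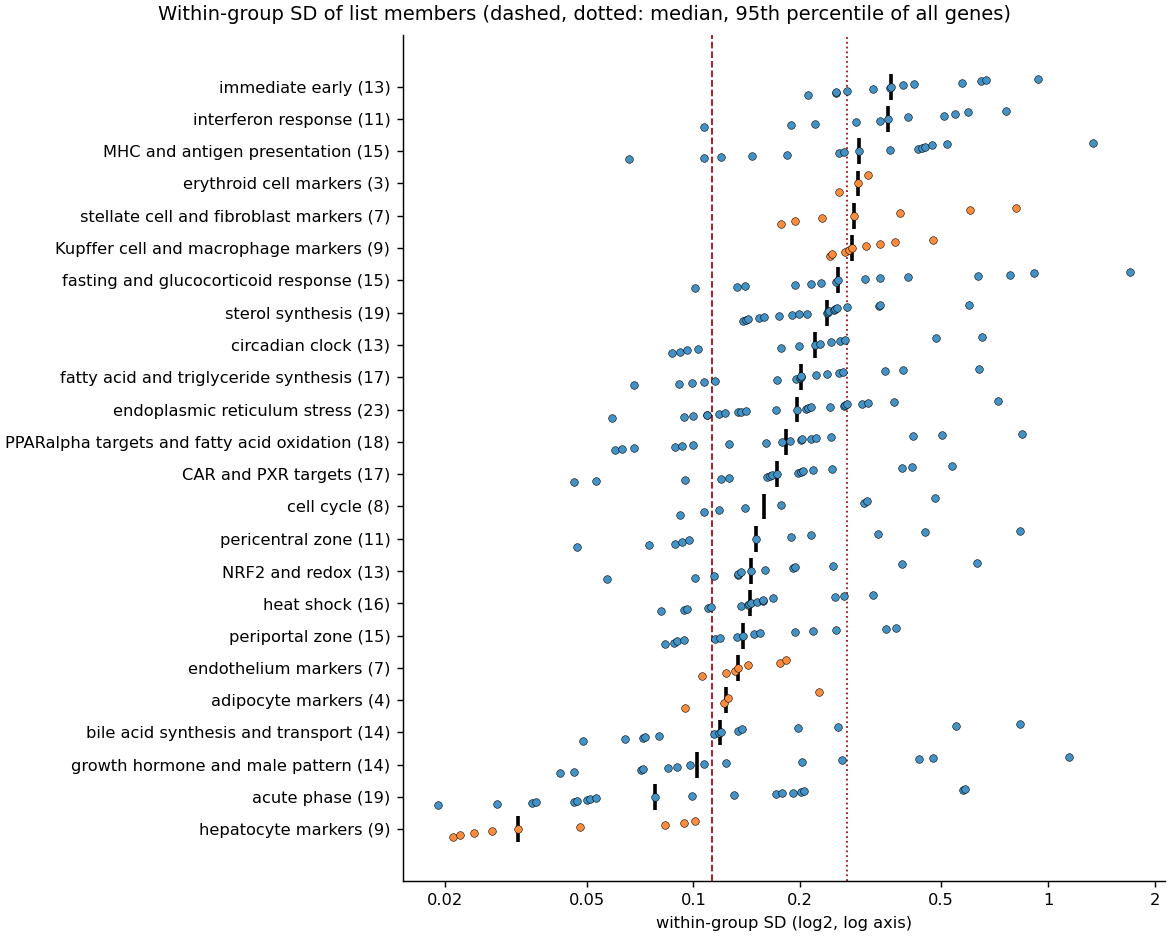
Within-group SD (log2, on a log axis) of the measured members of each gene list (blue) and cell type marker list (orange) with at least 3 measured genes; numbers in parentheses count them, black bars are list medians, and the dashed and dotted lines are the median (0.113) and 95th percentile (0.272) of all 7419 genes. Immediate early, interferon and MHC genes lie highest and hepatocyte markers lowest.

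Cell type markers other than those of hepatocytes varied as well. The 9 Kupffer cell markers had a median SD of 0.28, all above the upper quartile, led by Cd5l (0.473) and Clec4f (0.371). The 7 stellate cell and fibroblast markers had a median of 0.283, led by the matrix proteoglycans Lum (0.815) and Dcn (0.602), and the 3 erythroid markers one of 0.292. The 7 endothelial markers were steadier, at 0.134. Of 11 T and NK cell markers only Ccl5 had a mean of at least 6, as did 1 of 5 B cell and plasma cell markers, and none of 4 neutrophil markers did. Cela1 was the only exocrine pancreas marker at that level.

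When the 150 genes with the highest SD were clustered by the correlation of their deviations, 88 fell into 7 clusters of at least 4 genes. These clusters and the gene pairs named in the following paragraphs were chosen after the values were seen, so their correlations are given as descriptions with no p-value. Pearson's r and Spearman's rho refer to deviations over the 36 arrays.

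The largest cluster, with 28 genes and a median r of 0.78, joined interferon-stimulated genes (Usp18, Irf7, Isg15, Rtp4, Slfn4), MHC and antigen processing genes (Cd74, RT1-Da, RT1-Db1, RT1-S3, Psmb8) and macrophage genes (Cd5l, Adgre1, Fcgr3a, Ms4a6a). It was largely separate from the others: the r of its mean deviation with those of the other 6 clusters lay between -0.07 and 0.26.

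The second cluster held 14 genes with a median r of 0.65, among them Onecut1, Socs2, the mitochondrial carriers Slc25a30 and Slc25a25, Sgk1, Jun, Bhlhe40, Insig1 and Angptl4. The fifth held 9 genes with a median r of 0.59, among them Bcl6, Egr1, Cyp7a1, the zinc finger genes Zfp354a and Sall1, and Tbx3. The mean deviations of these clusters opposed each other with r = -0.89. Onecut1 and Socs2 moved together (r = 0.946, rho = 0.932, and 0.941 without the 2 arrays farthest from the median of Onecut1), with r between 0.919 and 0.973 in each of the 6 dose groups. Onecut1 and Cyp7a1 moved in opposite directions (r = -0.847, rho = -0.863, and -0.833 without 2 arrays), between -0.943 and -0.689 in each group.

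Bcl6 levels fell on both sides of a gap, so no pooled r is given for it. Within the dose groups its r with Onecut1 lay between -0.953 and -0.538 and with Cyp7a1 between 0.649 and 0.973. Every dose group had arrays on both sides, so these values span the same gap and do not replace a pooled r. Over the 21 arrays on the high side of the gap, r was -0.63 with Onecut1 and 0.77 with Cyp7a1, and over the 15 on the low side -0.25 and 0.31. With Egr1, a gene of the same cluster as Bcl6, it was -0.01 on the high side and 0.55 on the low side. Jun followed Onecut1 (r = 0.884, rho = 0.904, and 0.895 without 2 arrays), whereas Egr1 and Jun, both immediate early factors, were not aligned (r = -0.304, rho = -0.232, and -0.215 without 2 arrays), with 1 of 6 groups above 0. The first principal component of the deviations, with 14.9% of the variance, had Bcl6, Cyp7a1 and Egr1 at one end and Onecut1 and Socs2 at the other. Its r with the difference between 3-prime and 5-prime control probe sets, a measure of RNA degradation and labelling, was -0.48 for Gapdh and -0.5 for actin, whose part in the pattern was not tested.

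**Figure D3:**
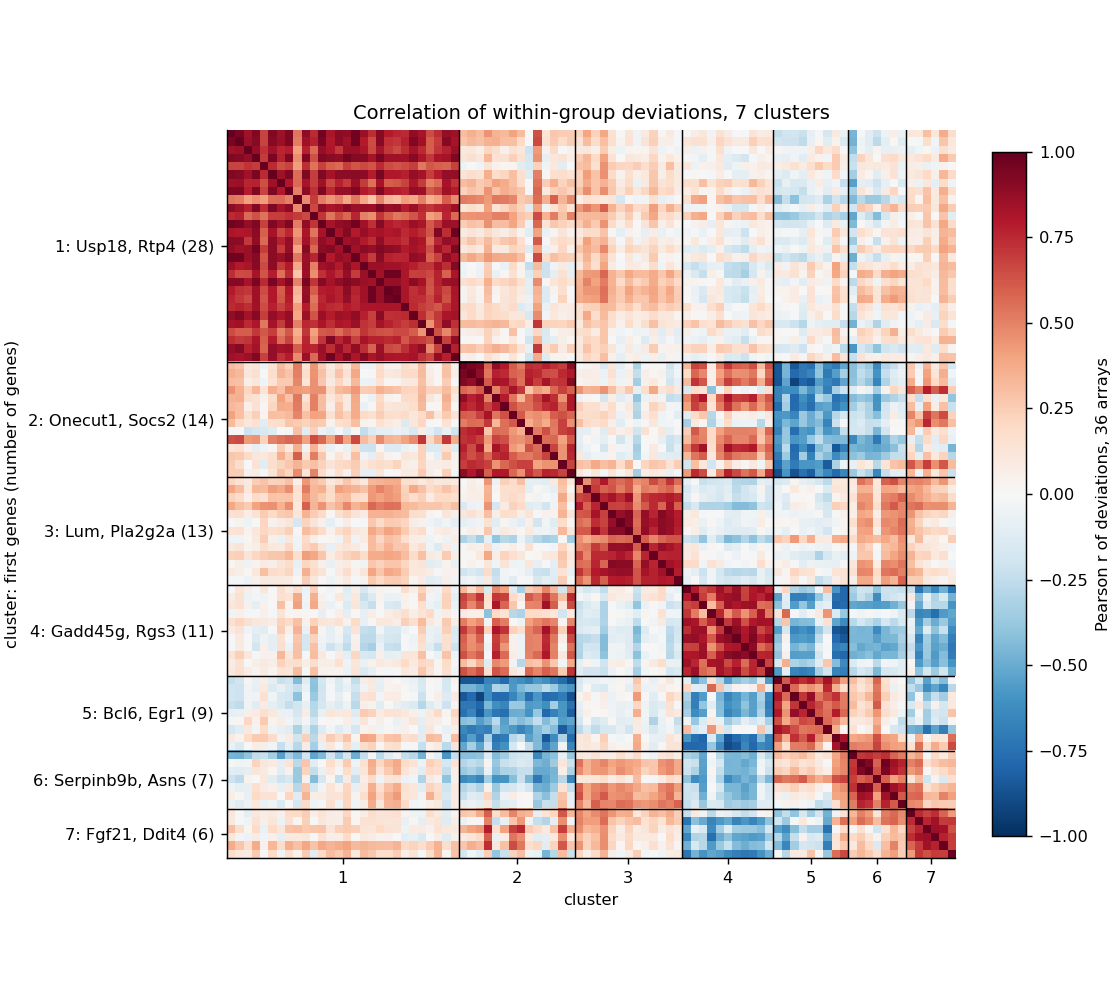
Pearson r of within-group deviations over 36 arrays for the 88 genes in 7 clusters (red positive, blue negative; rows and columns are genes, lines separate clusters). Cluster 1 (interferon, MHC and macrophage genes) stands largely alone, and clusters 2 (Onecut1, Socs2) and 5 (Bcl6, Egr1) oppose each other.

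The remaining clusters were smaller. The third, 13 genes with a median r of 0.73, held genes of connective tissue (Lum, Dcn, Tagln, Col6a3, Mgp, Ccdc80). Lum, the most variable, ran in vehicle from 4.33 through 5.94 to 7.30 and at 641 mg/kg from 4.81 through 6.33 to 6.74. Its r was 0.68 with the summed level of 11 stellate cell and fibroblast markers, which include Lum itself. It was 0.73 with the summed level of 12 exocrine pancreas markers, of which only Cela1 (mean 9.72) had a mean of at least 6 and the others lay at 2.42 to 5.36. The part of other tissue in the sample was not tested. Lum and Dcn moved together with r = 0.801 (rho = 0.818, and 0.783 without 2 arrays). The fourth, 11 genes with a median r of 0.77, held Gadd45g, a growth arrest and DNA damage gene, Rgs3, the phosphatases Dusp1 and Dusp6, Myc, and the hepatocyte factors Foxa2 and Hhex.

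The sixth, 7 genes with a median r of 0.73, held Asns, Psat1 and Phgdh, which make asparagine and serine and are targets of ATF4, with Nupr1, Igfbp1, Igfbp2 and Serpinb9b. Asns, asparagine synthetase, ran in vehicle from 6.56 through a median of 7.51 to 8.13, at 0.06 mg/kg from 6.81 through 7.46 to 8.78, at 64.1 mg/kg from 5.63 through 7.42 to 8.12 and at 641 mg/kg from 6.04 through 7.55 to 8.55. Phgdh, the first enzyme of serine synthesis, followed it with r = 0.973 (rho = 0.964, and 0.964 without 2 arrays), between 0.959 and 0.988 in each group. Psat1 followed it with r = 0.933 (rho = 0.923, and 0.919 without 2 arrays). The summed level of 9 adipocyte markers, of which 4 had a mean of at least 6 (Car3, Cidec, Lipe and Cfd), had an r of -0.64 with Asns and ran from 13.22 to 13.87 over the arrays. The summed stellate cell markers had an r of 0.43 with Asns. The seventh cluster, 6 genes with a median r of 0.71, held Fgf21, Ddit4, an inhibitor of mTOR induced by stress and glucocorticoid, Angptl8 and G0s2, an inhibitor of triglyceride lipolysis. Fgf21 and Ddit4 moved together with r = 0.743 (rho = 0.753, and 0.725 without 2 arrays). The r of Fgf21 with the summed adipocyte markers was -0.52. Of the adipocyte markers, Cfd also rose with Irf7, Cd74 and Cd163 in the fits described below. Whether the summed level reports fat cells, and the part of these markers in both clusters, was not tested.

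Co-variation was then tested for 10 index genes, 1 for each of 10 functions. Each probe set was fitted in limma on dose group plus the level of the index gene over all 36 arrays, and p-values were adjusted over all probe sets. A slope is the log2 change of a gene per log2 unit of the index gene.

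Sqle, squalene epoxidase, a rate-controlling enzyme of cholesterol synthesis, stood for the sterol genes. Its range was narrow: in vehicle it ran from 8.53 through 8.95 to 9.22 and at 6.41 mg/kg from 8.77 through 9.40 to 9.52, and the groups overlapped. Of 10881 probe sets 37 (0.34%) passed, all rising with it, and 13 of 18 sterol synthesis genes rose with it. Their median r was 0.70, where the median over all genes was 0.05. Msmo1, Idi1, Fdps, Mvd and Hsd17b7, enzymes before and after squalene, were the 5 genes most like Sqle. Msmo1 had a slope of 0.68 ± 0.0663 (SE, adjusted p = 1.02e-07, r = 0.888) and Idi1 one of 0.75 ± 0.0834 (SE, adjusted p = 1.55e-06, r = 0.853).

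Insig1 was not among the called genes. Its r with Sqle was 0.441 (rho = 0.427, and 0.336 without 2 arrays) and ran from -0.611 to 0.958 in the dose groups, and it sat in the cluster of Onecut1, with which its r was 0.514 (rho = 0.453, and 0.472 without 2 arrays). The 3-prime minus 5-prime difference of actin had an r of 0.5 with Sqle. With the control differences as a covariate 15 of 18 sterol genes were called, and with arrays blocked by replicate number 9 were.

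Fasn, fatty acid synthase, moved with 51 of 10880 probe sets (0.469%), of which 46 (0.423%) rose with it and 5 (0.046%) fell. Of 16 genes of fatty acid synthesis 3 rose with it, with a median r of 0.20 against 0.01 over all genes: Acly (slope 0.61 ± 0.0818, SE, adjusted p = 1.52e-04), which makes cytosolic acetyl-CoA, Acaca, acetyl-CoA carboxylase (r = 0.734), and Fads1, a desaturase (r = 0.678). Of 19 sterol genes 10 rose with Fasn, with a median r of 0.60. The most variable gene of the fatty acid list, Scd, did not follow Fasn (r = 0.053, rho = 0.096, and 0.007 without 2 arrays). Without 6.41 mg/kg replicate 5, the array with the lowest Fasn level (9.18), the count of sterol genes was 5 and that of probe sets 15. The probe sets numbered 24 to 33 without vehicle replicate 1, 64.1 mg/kg replicate 4 or 641 mg/kg replicates 1 or 6.

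Per2, a repressor of the circadian clock, ran in vehicle from 6.27 through 6.82 to 7.42, at 6.41 mg/kg from 5.62 through 6.54 to 7.25 and at 641 mg/kg from 6.12 through 7.02 to 7.67. It moved with 45 of 10880 probe sets (0.414%), 33 the same way (0.303%) and 12 the opposite way (0.11%). Of 12 clock genes, Cry1, its partner in repression (slope 0.41 ± 0.0535, SE, adjusted p = 9.33e-05, r = 0.812), and Hlf, an output factor (r = 0.608), rose with it, and Nr1d2 (REV-ERB beta) fell with it (slope -0.37 ± 0.0742, SE, adjusted p = 0.0184, r = -0.66). The median r of the list was 0.15 against -0.03 over all genes, and Bmal1 (r = -0.174) was not called. The genes nearest to Per2 after Cry1 were Nat8, Tmem37, Gda and Nav2, and the farthest were Ccm2, Klhl24 and Eif4a2. The count was 4 without 6.41 mg/kg replicate 5, which had the lowest Per2 level, and 86 without vehicle replicate 1. It was 16 to 28 without vehicle replicate 5, 0.641 mg/kg replicate 2, 6.41 mg/kg replicates 2 or 3, or 64.1 mg/kg replicates 1 or 6. A second Per2 probe set varied less (SD 0.109) and followed the first with r = 0.709.

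**Figure D4:**
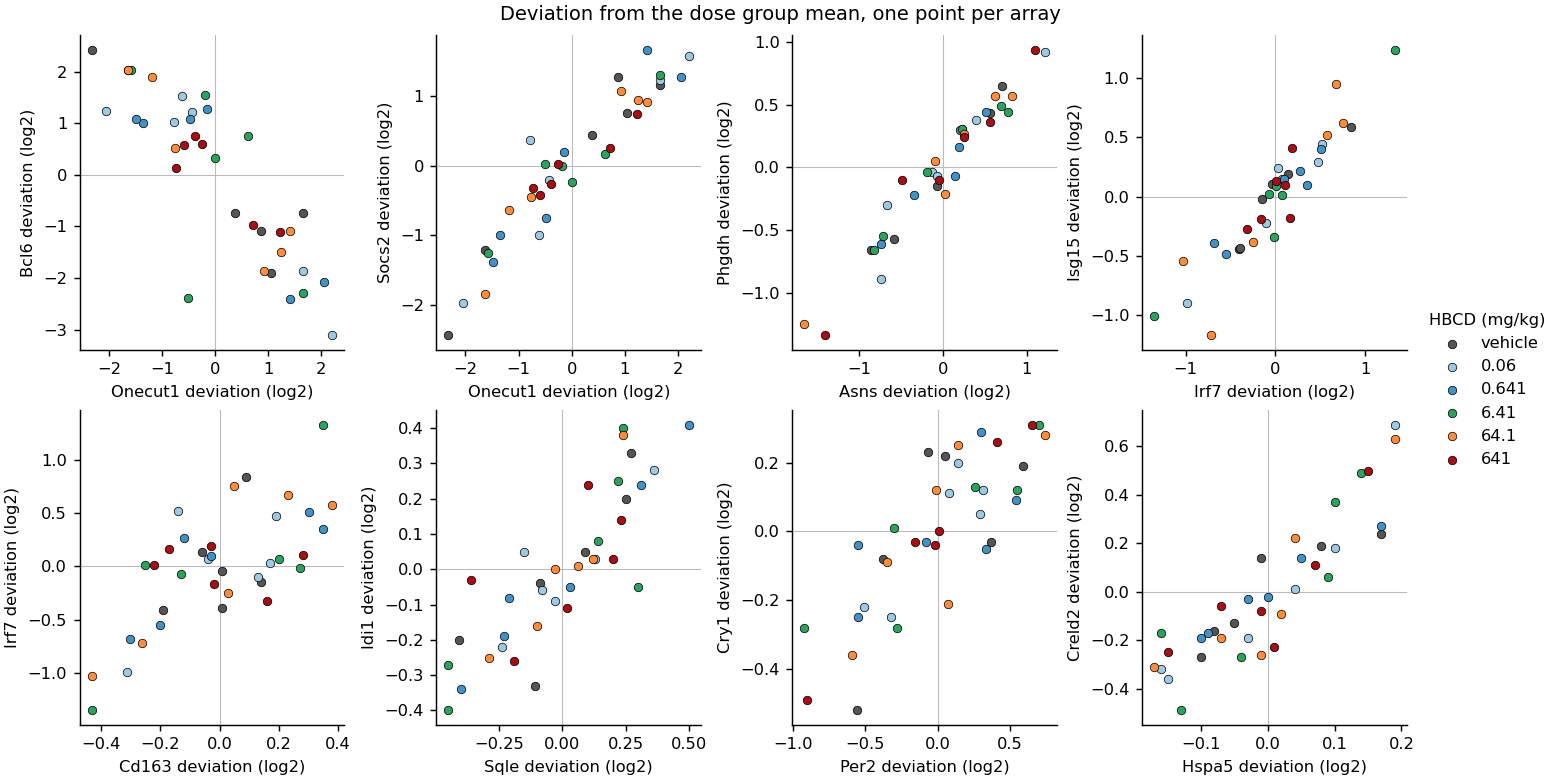
Deviation from the dose group mean (log2) for 8 gene pairs; each point is 1 of 36 arrays, coloured by HBCD dose. Bcl6 and Onecut1 oppose each other, and Onecut1 with Socs2, Asns with Phgdh, Irf7 with Isg15, Sqle with Idi1, Per2 with Cry1 and Hspa5 with Creld2 rise together in arrays of all doses. Irf7 and Cd163 rise together in 5 of 6 dose groups.

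Irf7 ran in vehicle from 6.85 through a median of 7.16 to 8.09, at 6.41 mg/kg from 5.86 through 7.21 to 8.54, at 64.1 mg/kg from 5.57 through 6.77 to 7.35 and at 641 mg/kg from 6.85 through 7.22 to 7.36. The ranges of all groups overlapped. The arrays at 641 mg/kg lay closest together, but the spread of Irf7 did not differ between dose groups (limma on absolute deviations, adjusted p = 0.667). Of 10881 probe sets 274 (2.52%) moved with Irf7, 264 of them the same way (2.43%) and 10 the opposite way (0.0919%), and 9 of 10 interferon genes did, with a median r of 0.81 against 0.04 over all genes. Isg15 (slope 0.86 ± 0.0591, SE, adjusted p = 1.31e-12), Usp18 (slope 1.19 ± 0.085, SE, adjusted p = 3.44e-12) and Irf9, the DNA-binding subunit of the interferon-activated complex ISGF3 (r = 0.925), followed it closely. The nearest genes were Lgals3bp, LOC100910973, Ms4a6a, Ly6e and Isg15.

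ISGF3 binds the interferon stimulated response element. Its core, GAAA followed after 2 bases of any kind by another GAAA, searched on both strands in the 250 bases before the start of transcription in RefSeq promoters of build GRCr8, were present in 3.41% of 33469 promoters. Of the 10 interferon genes of this group (Irf7 and the 9 called with it), 7 had a promoter entry and 5 of these held the letters: Irf7, Rsad2, Ifi27, Bst2 and Parp14, whereas Irf9 and Irf1 did not. The windows of Irf7 (chr1:205800053-205800122, minus strand), Rsad2 (chr6:48788228-48788297, minus strand) and Bst2 (chr16:18255053-18255128, minus strand) are shown 5′ to 3′ because these genes moved together here, with the letters in capitals; Irf7 and Rsad2 hold them on the opposite strand, and in Bst2 2 overlapping matches lie on the gene's own strand.
Irf7: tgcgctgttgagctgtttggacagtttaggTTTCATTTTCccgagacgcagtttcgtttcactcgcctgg
Rsad2: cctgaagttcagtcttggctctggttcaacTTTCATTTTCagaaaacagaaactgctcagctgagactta
Bst2: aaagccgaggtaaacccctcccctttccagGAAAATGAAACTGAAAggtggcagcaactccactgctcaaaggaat
A match is a description of letters and not of binding. Rsad2 (viperin), an antiviral enzyme, had a slope of 0.53 ± 0.0754 (SE) on Irf7 and Bst2 (tetherin), which holds virions to the cell surface, one of 0.41 ± 0.0471 (SE).

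Cd74, the invariant chain of MHC class II, moved with 297 of 10881 probe sets (2.73%), 279 the same way (2.56%) and 18 the opposite way (0.165%). Its partners RT1-Da (slope 1.02 ± 0.0445, SE, adjusted p = 1.43e-17) and RT1-Db1 (slope 0.99 ± 0.0519, SE, adjusted p = 1.84e-15) moved log2 unit for log2 unit with it. Of 14 MHC genes 10 rose with it, including B2m, Tap1 and the immunoproteasome subunits Psmb8, Psmb9 and Psmb10. The median r of the 14 was 0.57 against 0.04 over all genes. The exceptions were RT1-Ba, the most variable gene of the list (r = 0.344, limma adjusted p = 0.34), RT1-T24-4, Tap2 and Tapbp. Leaving out 6.41 mg/kg replicate 2, 6.41 mg/kg replicate 4 or 64.1 mg/kg replicate 4 each gave 6 called MHC genes.

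Cd163, a haemoglobin scavenger receptor of macrophages, moved with 198 of 10881 probe sets (1.82%), 196 of them the same way (1.8%), and 7 of 8 Kupffer markers rose with it, with a median r of 0.84 against 0.07 over all genes. They were Clec4f, Cd68, Cd5l, C1qa, C1qb, C1qc and Csf1r, and the exception was Lyz2 (r = 0.12, adjusted p = 0.9). Of 11 interferon genes 8 rose with Cd163, and 2 did without 6.41 mg/kg replicate 2. The summed level of the 9 Kupffer markers ran from 11.53 to 12.79 over the arrays, and its r was 0.87 with Irf7 and 0.8 with Cd74. The summed T and NK markers, of which 10 of 11 lay under a mean of 6, had an r of 0.78 with Irf7.

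With Cd163 as a covariate in the fit, an alternative chosen after the data were seen, 112 probe sets moved with Irf7 and 89 with Cd74. Of the interferon genes 7 were then called with Irf7, and of the MHC genes 3 were called with Cd74. Of the 45 pairs of index genes, 4 were correlated beyond an adjusted p of 0.05 in permutation tests within dose groups (two-sided, 100000 resamples), and 3 of these joined Irf7, Cd74 and Cd163. Irf7 and Cd74 had r = 0.804 (rho = 0.823, permutation p = 1e-05 for each, the smallest these resamples can give, adjusted p = 4.5e-04, and r = 0.784 without 2 arrays). Irf7 and Cd163 had r = 0.702 (rho = 0.612, permutation p = 5e-05 and 3.7e-04, adjusted p = 0.00105 and 0.00439, and r = 0.614 without 2 arrays), with 5 of 6 groups above 0. Cd74 and Cd163 had r = 0.673 (rho = 0.66, permutation p = 7e-05 and 1.3e-04, adjusted p = 0.00105 and 0.00292, and r = 0.615 without 2 arrays).

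The fourth pair was Sqle and Fasn, with r = 0.556 (rho = 0.577, permutation p = 3.7e-04 and 3.9e-04, adjusted p = 0.00416 and 0.00439, and r = 0.624 without 2 arrays), from 0.037 to 0.845 in the dose groups. The other 41 pairs had r between -0.37 and 0.47 and did not pass.

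Hspa5 (BiP), the main chaperone of the endoplasmic reticulum, varied little in absolute terms (SD 0.118, 1.43-fold over all arrays), with vehicle levels from 12.30 through 12.37 to 12.57 and levels at 641 mg/kg from 12.08 through 12.23 to 12.38. Of 10881 probe sets 337 (3.1%) moved with it, 313 the same way (2.88%) and 24 the opposite way (0.221%). Of 22 genes of endoplasmic reticulum stress 9 rose with it, with a median r of 0.38 against 0.09 over all genes: the chaperones and folding enzymes Hsp90b1, Pdia4, Calr, Dnajb11, Sdf2l1, Creld2, Manf and Hyou1, and the ubiquitin ligase Syvn1. Creld2 had a slope of 2.37 ± 0.216 (SE, adjusted p = 2.19e-08), so it moved more than Hspa5 itself, from 8.96 to 10.29 over the arrays, and Hsp90b1 had one of 1.01 ± 0.108 (SE, adjusted p = 5.69e-07). The ATF4 branch was not called with Hspa5: Asns, Trib3, Ddit3, Atf4 and Chac1 did not pass. Of 16 heat shock genes of the cytosol and mitochondria, 5 rose with Hspa5 (Hsph1, Hspe1, Stip1, Fkbp4 and Ahsa1), and 3 did without each of vehicle replicate 3, 64.1 mg/kg replicate 6, 641 mg/kg replicate 1 and 641 mg/kg replicate 6. The probe sets called with Hspa5 numbered 161 to 224 without those arrays, vehicle replicate 5, 0.641 mg/kg replicate 3 or 6.41 mg/kg replicate 6.

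The endoplasmic reticulum stress response element, bound by ATF6 with NF-Y, consists of CCAAT, 9 bases of any kind and CCACG, and so contains the CCAAT box. Searched as above, it was present in 22 of 33469 promoters (0.0657%). Of Hspa5 and the 9 genes called with it, 9 had a promoter entry and 4 of these held the letters (Hspa5, Hsp90b1, Calr and Creld2). Of 11 promoters of members not called, 2 held them (Dnajc3 and Xbp1). The CCAAT box alone was in 34% of all promoters and in all 9 of the first set. It was also in 7 of the 11 promoters of members not called. Of the sterol synthesis genes, 9 of 12 promoters of those called with Sqle and 3 of 3 of the others held it. The windows of Hspa5 (chr3:38452943-38453015, plus strand) and Creld2 (chr7:121789209-121789287, plus strand), the index gene and the gene most like it, are shown 5′ to 3′ with the letters in capitals, on the opposite strand in Creld2.
Hspa5: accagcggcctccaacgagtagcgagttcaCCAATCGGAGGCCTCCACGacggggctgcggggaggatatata
Creld2: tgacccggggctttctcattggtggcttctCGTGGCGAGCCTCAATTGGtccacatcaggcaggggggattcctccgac
No match says only that these letters are not in this window.

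Dnajb1 (HSP40), a co-chaperone of Hsp70, ran in vehicle from 7.98 through 8.21 to 8.44 and at 641 mg/kg from 7.99 through 8.19 to 8.34. It moved with 1259 of 10880 probe sets (11.6%), 896 the same way (8.24%) and 363 the opposite way (3.34%), the most of the 10 index genes, but with none of 15 other heat shock genes (limma, 2 at an unadjusted p under 0.05). The genes nearest to it were Mphosph10, Brix1, Ppan, Trmt10c and Riox1, of which Mphosph10, Brix1 and Ppan serve ribosome assembly, and the farthest was Rreb1 (r = -0.811). A second Dnajb1 probe set had an SD of 0.155 and followed the first with r = 0.666, and it was not used as an index. Dnajb1 had an r of 0.53 and 0.52 with the 3-prime minus 5-prime differences of Gapdh and actin. With these as a covariate 350 probe sets were called, and without 0.641 mg/kg replicate 2, which had the highest Dnajb1 level (8.59), the highest Gapdh difference (0.189), the highest actin difference (1.575) and the largest root mean square deviation of all arrays (0.207), the count was 402.

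Pck1, the rate-limiting enzyme of gluconeogenesis, moved with no probe set at an adjusted p under 0.05 by limma, where 1211 of 10881 had an unadjusted p under 0.05, among them 3 of 14 other fasting genes. Its levels ran in vehicle from 12.54 through 12.70 to 12.89 and at 641 mg/kg from 12.07 through 12.28 to 12.56. A2m moved with 29 of 10881 probe sets (0.267%), 19 the same way (0.175%) and 10 the opposite way (0.0919%), and with none of 18 other acute phase genes (limma, 3 at an unadjusted p under 0.05). The nearest genes were Mettl9, Lcmt1, Rpl7, Cic and Fgl1, and the farthest were Dcxr, Adtrp and Pnp. The count was 188 without 641 mg/kg replicate 2 and 50 without 64.1 mg/kg replicate 2. It was 1 to 18 without vehicle replicates 1 or 5, 0.06 mg/kg replicates 1, 3 or 6, 6.41 mg/kg replicates 1, 4 or 5, 64.1 mg/kg replicate 4 or 641 mg/kg replicate 6.

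**Figure D5:**
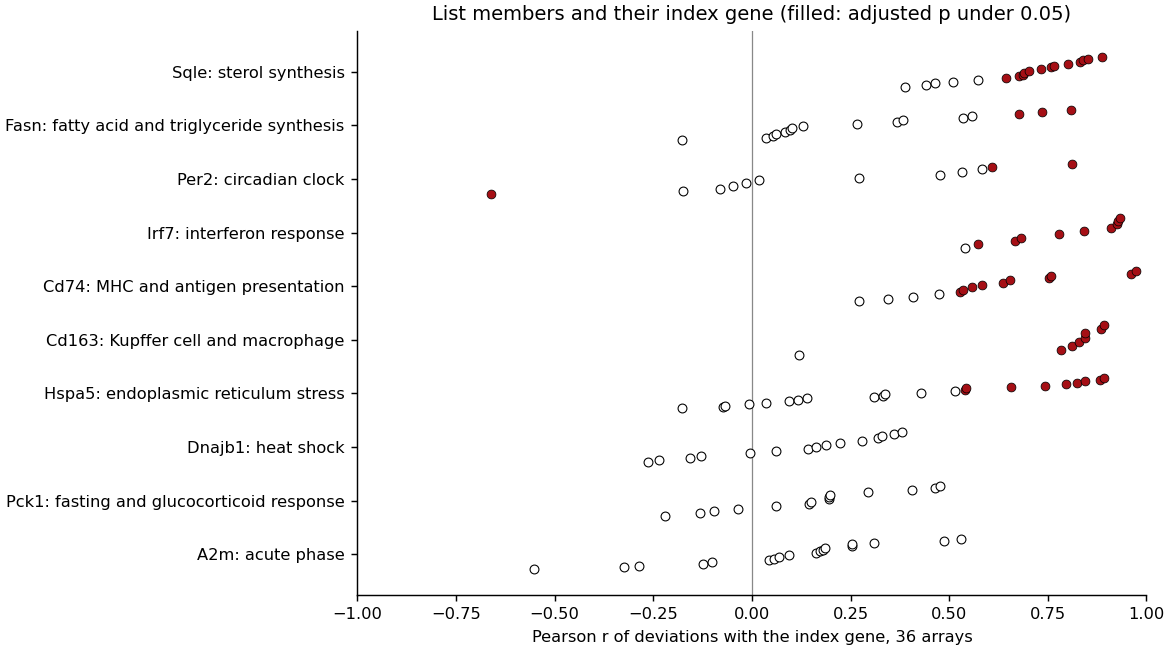
Pearson r of deviations over 36 arrays between each list member (point) and the index gene of its list; filled points passed limma at an adjusted p under 0.05. Sterol genes with Sqle, interferon genes with Irf7, MHC genes with Cd74 and Kupffer markers with Cd163 lie to the right, 9 of 22 endoplasmic reticulum genes passed with Hspa5, and no heat shock, fasting or acute phase gene passed with Dnajb1, Pck1 or A2m.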

How the data were processed

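Liver RNA of 36 arrays was measured on Affymetrix rat arrays. The values the authors deposited are log2 levels, for which the submitters' processing notes name RMA and affy, with versions not given in the sources used here. RMA brings all arrays to 1 distribution, so a shift of the whole array cannot be seen. The array medians ran from 4.83 to 4.903. The number of arrays limits the precision.

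Levels were used as deposited. Probe sets were named through the platform annotation: 20826 had 1 symbol, 436 several and 9780 none, and a gene was represented by 1 probe set, the one of highest mean. Within-group correlations of levels between arrays were 0.9912 to 0.9965, and 0 pairs were identical. Fits used limma 3.58.1 in R 4.3.3 on probe sets with a mean of at least 6, with Benjamini-Hochberg adjustment and a threshold of 0.05: an F test between dose groups, the same on absolute deviations, and dose group plus an index gene, leaving out that gene's own probe sets. The fits were run on simulated data with planted effects. A minimum recovery was required there of the dose and co-variation tests, but not of the spread test. Index pairs were tested by permuting arrays within dose groups (Python 3.11.15, scipy 1.17.1, 100000 resamples).

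The genes and lists were chosen with earlier results of these data known. Genes were named by rule: the 25 of highest SD, the 3 of highest SD in each list, the 10 index genes with the 5 genes most like and the 3 least like each, and up to 6 per cluster. Other members named were chosen after their values were seen. Promoters came from RefSeq (GRCr8). The alternatives were array centring, repeated quantile normalization, other level minimums, another variance prior, a replicate block, RNA quality or Cd163 as covariates, and leaving out each array.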

Additional observations from a re-analysis of the deposited data

Results flagged for a closer look

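In 228 sets of 6 arrays (35 genes and 3 array measures in each dose group) the highest or lowest array was compared with its nearest neighbour by Dixon's ratio, with a critical value of 0.625. In 23 sets the array stood apart. Chance gives about 1 in 20 for genes not chosen by their spread, but 25 of the 35 genes were chosen for a high SD, which a single array can raise, so the number of such sets is not compared with chance. For the genes with split levels, Ugt2b stood at 5.02 in vehicle replicate 3 (nearest other array 12.5), 6.77 in 0.06 mg/kg replicate 4 (12.6) and 5.23 in 0.641 mg/kg replicate 6 (12.7), and at 12.6 in 641 mg/kg replicate 1 (12.89). RT1-Ba stood at 4.24 in vehicle replicate 6 (9.4) and 4.62 in 64.1 mg/kg replicate 6 (8.5). Ephx2 stood at 8.88 in vehicle replicate 3 (6.45) and 8.95 in 6.41 mg/kg replicate 2 (6.16). Cdh17 was at 5.06 in 641 mg/kg replicate 3 (7.93), Ubd at 4.52 in 0.06 mg/kg replicate 6 (7.43) and Clca2 at 5.44 in 0.06 mg/kg replicate 5 (7.49).

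Among the other variable genes, Egr1 was at 6.11 in 64.1 mg/kg replicate 6 (7.94) and Cyp7a1 at 9.7 in 0.641 mg/kg replicate 4 (10.91). Sgk1 was at 11.19 in 0.06 mg/kg replicate 2 (9.76) and Zfp354a at 8.78 in 64.1 mg/kg replicate 4 (7.24). Inmt, an indolethylamine methyltransferase, was at 9.46 in 0.641 mg/kg replicate 1 (8.31), and Hykk, a hydroxylysine kinase, at 6.14 in 0.06 mg/kg replicate 5 (7.97).

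Among index genes and array measures, Fasn was at 9.18 in 6.41 mg/kg replicate 5 (9.72). In 0.641 mg/kg replicate 2, Dnajb1 was at 8.59 (8.23), Pck1 at 12.4 (12.78) and the 3-prime minus 5-prime difference of Gapdh at 0.189 (0.004). The actin difference was 1.435 in 0.06 mg/kg replicate 2 (1.189). The root mean square deviation over probe sets was lowest at 6.41 mg/kg in replicate 3, at 0.14 (0.158).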

How the results depend on the processing

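The number of arrays and the single probe set behind most genes limit these results. The correlations of each index gene with its 5 most and 3 least like genes, and of the called index pairs, were rerun in the alternatives. These genes were picked for an extreme r, and the counts are of reruns of the same correlations. None reversed its direction. Of the reruns, 3387 kept their direction and side of the threshold, 200 no longer passed and 7 newly passed. The SDs of the 25 leading genes and the median SDs of the function lists were rerun likewise. Of those reruns, 1840 moved by less than the margin and 4 by more (Ugt2b to 0.814 and Clca2 to 0.427 as median absolute deviation, RT1-Ba to 0.234 as the mean of its probe sets, and the pericentral median to 0.097 at a mean of at least 7). The counts of probe sets that moved by over 1.5 times were these, with causes not tested. With no minimum level the dose test called 240, the spread test 10, Per2 15, Fasn 22, Cd74 457, Hspa5 120, A2m 1 and Cd163 301 probe sets. At a mean of at least 7 the spread test called 7, Irf7 165, Cd74 192, A2m 55 and Cd163 108. With arrays centred on their medians the spread test called 6, Hspa5 1145 and A2m 19, and with repeated quantile normalization Per2 81 and Hspa5 105. With a trended, robust variance prior the spread test called 10 and A2m 51, and with deviations from the group median the spread test called 0. With the RNA quality covariates Per2 called 17, Dnajb1 350, Hspa5 185 and A2m 49. With Cd163 as a covariate, added after the data were seen, Irf7 called 112 and Cd74 89. With the replicate block Per2 called 14, Sqle 20, Fasn 14, Dnajb1 490, Hspa5 140 and A2m 0. Arrays share only a replicate number: over 90 pairs with the same number the mean r of deviations was 0.048 (from -0.343 to 0.453), 37 were over 0.1, and 10 of 36 arrays were closest to an array of their own number. Counts of list members moved by over 1.5 times in 26 cases. With the replicate block the heat shock genes called with Hspa5 went from 5 to 1 and the interferon genes called with Cd163 from 8 to 3. With no minimum level the interferon genes called were 18 with Irf7, 16 with Cd74 and 13 with Cd163, and at a mean of at least 7 they were 5, 5 and 4. The heat shock genes with Hspa5 were 2 with no minimum level, 2 with repeated quantile normalization and 8 with centred arrays, the MHC genes with Cd163 went from 3 to 8 with centred arrays and to 5 without 0.641 mg/kg replicate 6 or 64.1 mg/kg replicate 6, and the endoplasmic reticulum stress genes with Dnajb1 from 3 to 1 at a mean of at least 7. With Cd163 as a covariate the Kupffer markers with Cd74 went from 8 to 5. The remaining cases stand beside their results. Leaving out 1 array gave 241 to 383 for the dose test, 1 to 12 for the spread test, 4 to 86 for Per2, 29 to 48 for Sqle, 15 to 61 for Fasn, 234 to 287 for Irf7, 224 to 347 for Cd74, 402 to 1527 for Dnajb1, 161 to 433 for Hspa5, 0 to 1 for Pck1, 1 to 188 for A2m, 143 to 213 for Cd163, 4 to 6 called index pairs, and 94 to 99 of the 100 genes of highest SD shared.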
